A study of Homo sapiens with 8 samples.

Results

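The cytosolic and mitochondrial chaperones described here are 47 genes, chosen by name, out of 57815 gene identifiers measured by RNA-seq in 2 lung adenocarcinoma cell lines. They comprise 6 HSP70 genes, 3 HSP110 genes, 2 HSP60 genes (HSPD1 and its partner HSPE1), 3 HSP90 genes, 3 genes with small HSP symbols, 10 J protein genes, 4 BAG genes, 5 HSP90 co-chaperones, the ubiquitin ligase STUB1, the heat shock factors HSF1 and HSF2, and the 8 subunits of the CCT chaperonin. Of these, 38 encode cytosolic proteins and 5 encode mitochondrial proteins. All 47 were matched to an identifier.

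ABC1 and HCC4006 cells carry no KEAP1 or NRF2 mutation per the labels. Each line received 100 μM diethyl maleate (DEM), an electrophile that binds thiols and depletes glutathione, or the solvent DMSO as vehicle, and RNA was taken after 16 h. There were 2 libraries in each of the 4 groups, from cultures that the methods call biological replicates. Each line stands for itself alone, as an established line. The question put to the data was which chaperone genes respond to DEM within each line.

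Chaperones bind unfolded proteins and keep them from aggregating. HSP70 proteins work in cycles set by J proteins, which deliver substrate and start ATP hydrolysis, and by BAG and HSP110 proteins, which release ADP, while HSP90 completes the folding of kinases and steroid receptors with the help of co-chaperones. When unfolded proteins build up, HSF1 is freed from chaperones, forms trimers and binds heat shock elements, which are inverted repeats of the letters GAA, in front of inducible chaperone genes, whereas constitutive relatives such as HSPA8 and HSP90AB1 are abundant without stress and the CCT genes serve the folding of actin and tubulin.

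NQO1 and 4 other genes fixed as a check of the treatment were called higher with DEM in both lines. NQO1, a quinone reductase under NRF2 control, was at 56.0 and 82.8 FPKM with vehicle and 193 and 221 FPKM with DEM in ABC1, and at 273 and 269 against 480.0 and 525 FPKM in HCC4006. FPKM counts sequenced fragments relative to transcript length and library size, and its sum per library ranged from 627085 to 737534. With 2 libraries against 2 an exact permutation test cannot go below p = 0.333, so all calls rest on limma fitted to log2(FPKM + 1) across every gene that averaged 1 FPKM or more, with Benjamini-Hochberg adjusted p under 0.05. All 5 epithelial markers were above 1 FPKM in every library, with a summed level of 3655 to 5799 FPKM in ABC1 and 1983 to 2472 FPKM in HCC4006. Their sum was lower with DEM in both lines, and KRT8 (log2 fold change -0.46) and KRT18 (-0.40) fell in HCC4006. In ABC1, the DEM libraries of KRT8, KRT18 and KRT19 lay below the vehicle libraries. There 3 of the 5 markers were lower at an unadjusted p under 0.05 by limma (lowest estimate -0.65), and 0 were called. The part of these falls in the chaperone values was not tested. The 4 lung lineage markers summed to at most 1.39 FPKM in ABC1, where each stayed below 1 FPKM, and to 57.0 to 63.4 FPKM in HCC4006. In HCC4006, NKX2-1 was at 42.4 to 47.1 FPKM and NAPSA at 12.9 to 16.0 FPKM, while SFTPB and SFTPC stayed below 1 FPKM. The leukocyte markers PTPRC and CD3E and the endothelial markers stayed below 1 FPKM in every library, CD68 was at 1.55 to 102 FPKM, and the 5 fibroblast markers summed to 3.81 to 9.33 FPKM.

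Promoter sequences are shown for 5 members that the results below turn on, chosen with their values known. Each of them holds a match to a heat shock element, which not all called members do. They are the 250 bases before a RefSeq start site (sequences from GRCh38.p14, each found once by exact match in GRCh37, whose coordinates are given), and capitals mark matches to a heat shock element of 2 facing units (GAANNTTC), of 2 units back to back (TTCNNGAA), or of 3 units, in which a facing pair and a back-to-back pair share the middle unit. HSPA1A lies at chr6:31783070-31783319 on the plus strand, upstream of the gene. HSP90AA1 lies at chr14:102553382-102553631 on the minus strand and HSPB8 at chr12:119616486-119616735 on the plus strand, both in the span of a longer annotated transcript outside its exons. DNAJB4 lies at chr1:78470373-78470622 on the plus strand, before its downstream start site and within the gene's annotated span. CHORDC1 lies at chr11:89956218-89956467 on the minus strand.
HSPA1A: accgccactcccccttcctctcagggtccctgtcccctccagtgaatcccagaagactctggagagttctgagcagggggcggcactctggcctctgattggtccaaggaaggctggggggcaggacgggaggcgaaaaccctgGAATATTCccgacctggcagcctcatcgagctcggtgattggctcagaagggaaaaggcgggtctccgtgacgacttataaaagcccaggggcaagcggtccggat
HSP90AA1: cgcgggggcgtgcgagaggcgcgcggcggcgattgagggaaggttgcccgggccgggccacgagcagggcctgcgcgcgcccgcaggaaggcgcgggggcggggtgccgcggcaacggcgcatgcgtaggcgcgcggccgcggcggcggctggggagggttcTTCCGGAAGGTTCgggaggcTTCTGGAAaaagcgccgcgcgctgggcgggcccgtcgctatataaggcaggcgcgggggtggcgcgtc
CHORDC1: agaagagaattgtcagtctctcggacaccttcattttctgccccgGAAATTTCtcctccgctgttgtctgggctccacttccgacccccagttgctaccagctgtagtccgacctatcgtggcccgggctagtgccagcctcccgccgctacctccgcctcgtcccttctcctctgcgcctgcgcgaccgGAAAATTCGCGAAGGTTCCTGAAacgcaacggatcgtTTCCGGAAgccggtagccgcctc
DNAJB4: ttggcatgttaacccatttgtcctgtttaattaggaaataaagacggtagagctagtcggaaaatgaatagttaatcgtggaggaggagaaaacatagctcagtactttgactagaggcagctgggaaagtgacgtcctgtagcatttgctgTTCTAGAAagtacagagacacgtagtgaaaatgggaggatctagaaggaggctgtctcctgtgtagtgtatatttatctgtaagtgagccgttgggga
HSPB8: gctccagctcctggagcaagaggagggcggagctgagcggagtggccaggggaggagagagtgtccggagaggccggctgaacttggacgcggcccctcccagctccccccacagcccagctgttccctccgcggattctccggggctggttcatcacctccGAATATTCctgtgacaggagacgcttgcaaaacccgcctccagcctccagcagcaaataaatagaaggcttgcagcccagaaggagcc
Over windows of 300 bases, which reach 50 bases past the start, on both strands, the element of 3 units was found in 172 of 35116 RefSeq windows (0.49%) and in 7 of the 59 windows of 42 members, those of HSPA8, HSPD1, HSP90AA1, HSP90AB1, DNAJA1, DNAJB6 and CHORDC1. The facing pair was found in 6.77% of all windows and in 16 of 59 member windows, and the back-to-back pair in 7.74% and in 12 of 59. The core of the antioxidant response element bound by NRF2 (TGACNNNGC) was found in 13.3% of all windows and in 10 of 59. CHORDC1 held 3 overlapping matches of 3 units, HSPA1A held 1 facing pair, HSPB8 held 2, of which 1 lies past the start and is not printed, and DNAJB4 held a back-to-back pair. HSP90AA1 and DNAJB4 have several windows each, and their matches lie only in the windows printed. Which start site these lines use was not tested. A match is a description of these letters and not a binding site, and 7 of the 15 members with a facing pair were not called in either line. Conversely, the windows of the called members HSPA13, HSPH1, BAG1, BAG3 and HSPB11 held no match to any of these heat shock elements. No window was used for HSPA14, FKBP4, STUB1, CCT6A and HSF1.

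In HCC4006 cells, 15 of the 47 chaperone genes were called higher with DEM and none lower, where 8.45% of the 13542 genes tested were called higher, 10.7% lower and 19.1% either way. They were the HSP70 genes HSPA1A, HSPA1B, HSPA8, HSPA9 and HSPA13, the HSP110 gene HSPH1, HSP90AA1, HSPB8, the J protein gene DNAJB1, BAG1, BAG2 and BAG3, and the HSP90 co-chaperones CHORDC1, FKBP4 and STIP1. In ABC1 cells, 45 of the 47 were tested, DNAJB4 and HSPB11 were called higher and none was called lower, where 0.768% of 12635 genes were called higher, 0.435% lower and 1.2% either way. At an unadjusted p under 0.05, 18 members were higher and 1 lower in ABC1 (all genes: 10.6% and 11.4%) and 20 were higher and 1 lower in HCC4006 (all genes: 16.3% and 20.5%).

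The median log2 fold change of the members was 0.32 in ABC1 and 0.13 in HCC4006, beside -0.017 and -0.025 over all genes tested. Estimates were above 0 for 34 of 45 members in ABC1 and 34 of 47 in HCC4006, against 47.7% and 47% of all genes. Both DEM libraries lay above both vehicle libraries for 26 of 45 members in ABC1, against 25.5% of all genes, and for 28 of 47 in HCC4006, against 29.3%. Both lay below for HSPA4L and CCT2 in ABC1 (all genes 28.2%) and for 9 members in HCC4006 (all genes 35.3%). The members' median standard error was 0.152 in ABC1 and 0.077 in HCC4006, so that a change of a given size passed the test less readily in ABC1. Among all genes, the smallest log2 fold change called was 0.80 for ABC1 and 0.22 for HCC4006.

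The counts moved with the fit, and a fit with a replicate block called more members than any other in each line, some of them lower. Among the fits without that block, in ABC1 8 members were called higher after rescaling by the median of ratios, 12 in a fit of all 8 libraries and 0 without a minimum FPKM; without the vehicle library of replicate 1 none was called, and without that of replicate 0 only DNAJB4 was. In HCC4006, 8 were called without the mean-variance trend, 6 in the fit of all 8 libraries and 2 without a minimum (HSPB8 and FKBP4); leaving out vehicle replicate 0, DEM replicate 0, vehicle replicate 1 or DEM replicate 1 gave 6, 7, 3 and 5. HSPB8 and FKBP4 stayed called in 11 of 11 alternatives. Summed over all 47 genes, the chaperones took 7513 and 9219 FPKM with vehicle and 8795 and 10621 FPKM with DEM in ABC1. These groups overlapped, while those of HCC4006, at 9448 and 9425 against 10565 and 10812 FPKM, did not. As a share of each library's FPKM sum, the groups did not overlap in either line. The shares were 1.19% and 1.32% with vehicle against 1.40% and 1.44% with DEM in ABC1. In HCC4006 they were 1.35% and 1.42% against 1.52% and 1.61%.

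**Figure D1:**
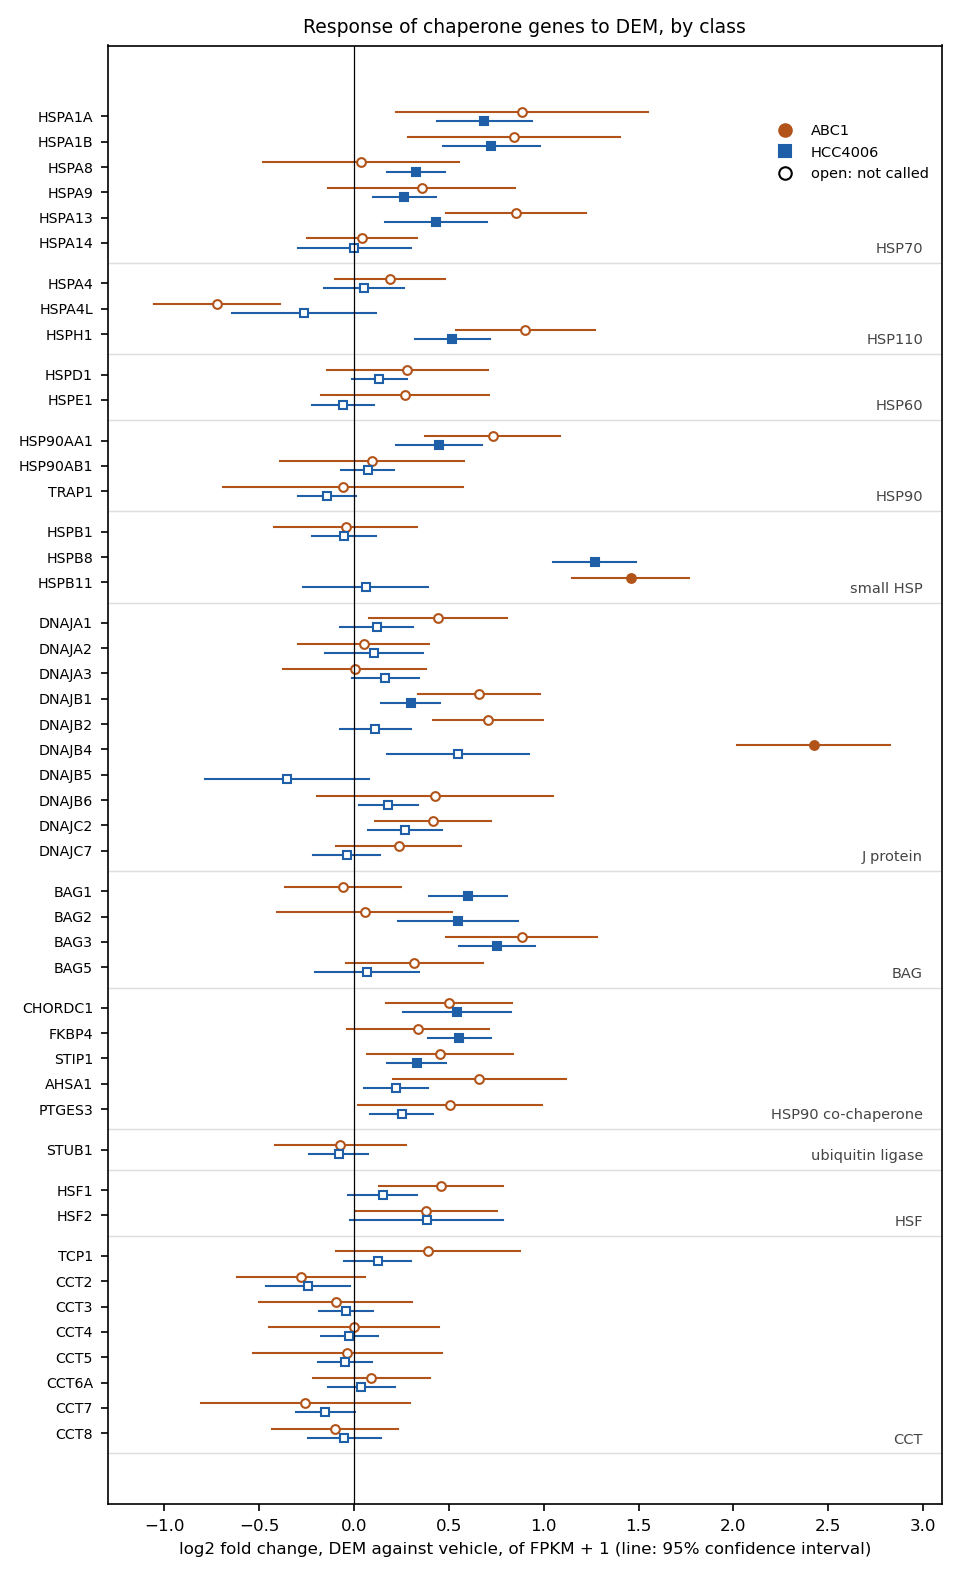
Log2 fold change of FPKM + 1, DEM against vehicle, of each chaperone gene in ABC1 (circles) and HCC4006 (squares), with 95% confidence intervals from limma, 2 libraries a group; filled symbols were called at adjusted p under 0.05. The 15 filled squares lie right of 0, the 2 filled circles are DNAJB4 and HSPB11, and the 8 CCT genes, with no filled symbol, run from -0.28 for CCT2 to 0.39 for TCP1, both in ABC1; HSPB8 and DNAJB5 were under the minimum in ABC1 and have no circle.

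A list of 18 members known to be heat-inducible to some degree was drawn up with earlier results of these data known (HSPA1A, HSPA1B, HSPA8, HSPA4L, HSPH1, HSPD1, HSPE1, HSP90AA1, HSP90AB1, HSPB1, DNAJA1, DNAJB1, DNAJB4, BAG3, CHORDC1, FKBP4, STIP1 and AHSA1). It includes HSPA8 and HSP90AB1, which are also abundant without stress, and HSPA8 is among its called genes. The list held 10 of the 15 genes called in HCC4006 and 1 of the 2 called in ABC1. Its median log2 fold change was 0.33 in HCC4006 and 0.48 in ABC1, and 15 and 16 of the 18 were above 0. The other 29 members had medians of 0.07 and 0.09, with 5 called of 29 tested in HCC4006 (HSPA9, HSPA13, HSPB8, BAG1 and BAG2) and 1 called of 27 tested in ABC1 (HSPB11).

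Among the HSP70 genes, 5 of 6 rose in HCC4006 and none was called in ABC1, where all 6 estimates were above 0, between 0.04 and 0.88, and 3 had an unadjusted p under 0.05 by limma. HSPA1A and HSPA1B encode the near-identical inducible cytosolic HSP70. HSPA1A was at 28.2 and 24.5 FPKM with vehicle and 45.2 and 40.7 FPKM with DEM in HCC4006 (log2 fold change 0.69, SE 0.10, limma adjusted p = 0.0108). In ABC1 it was at 54.8 and 86.5 against 107 and 153 FPKM (0.88, SE 0.27, adjusted p = 0.147). The DEM libraries were above the vehicle libraries in both lines, and the 2 vehicle libraries of ABC1 differed from each other more than those of HCC4006. HSPA1B was at 7.62 and 6.95 against 12.5 and 12.8 FPKM in HCC4006 (0.72, SE 0.10, adjusted p = 0.00997) and at 25.3 and 38.0 against 50.01 and 63.7 FPKM in ABC1 (0.84, SE 0.23, adjusted p = 0.121). The split of reads between the 2 genes is uncertain, since 71.2% of the 80-base stretches of HSPA1A transcripts and 73.3% of those of HSPA1B also occur in other genes, mainly each other.

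HSPA8, the constitutive cytosolic HSP70 and the most abundant member in every library, was at 1663 and 1696 FPKM with vehicle and 2175 and 2032 FPKM with DEM in HCC4006 (0.32, SE 0.06, adjusted p = 0.0218). In ABC1 it was at 1451 and 1848 against 1492 and 1893 FPKM (0.04, SE 0.21), with groups that overlapped. HSPA13, a microsomal HSP70 relative, was at 12.7 and 14.8 against 18.1 and 19.6 FPKM in HCC4006 (0.43, SE 0.11, adjusted p = 0.0451) and at 15.3 and 17.2 against 27.3 and 33.1 FPKM in ABC1 (0.85, SE 0.15, adjusted p = 0.0657). HSPA14, a ribosome-associated HSP70, was at 18.8 and 17.8 against 16.4 and 20.4 FPKM in HCC4006 (0.00) and at 24.1 and 23.8 against 24.8 and 24.4 FPKM in ABC1 (0.04), with 12.5% of its 80-base stretches shared with MSANTD7.

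The HSP110 genes encode nucleotide exchange factors of HSP70, and the 3 estimates did not share a sign. HSPH1 was at 57.7 and 59.9 FPKM with vehicle and 80.1 and 89.4 FPKM with DEM in HCC4006 (0.52, SE 0.08, adjusted p = 0.0123). In ABC1 it was at 40.7 and 51.1 against 84.9 and 87.5 FPKM (0.90, SE 0.15, adjusted p = 0.0600). HSPA4 gave 0.05 in HCC4006 and 0.19 in ABC1. HSPA4L, also known as an HSP110 gene, was at 20.2 and 20.1 against 10.9 and 12.7 FPKM in ABC1 (-0.72, SE 0.13, adjusted p = 0.0696), the lowest estimate of any member in that line. In HCC4006 it was at 2.29 and 2.52 against 1.78 and 1.89 FPKM (-0.26, adjusted p = 0.269). Both DEM libraries lay below both vehicle libraries in each line, but the change was not called in either.

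**Figure D2:**
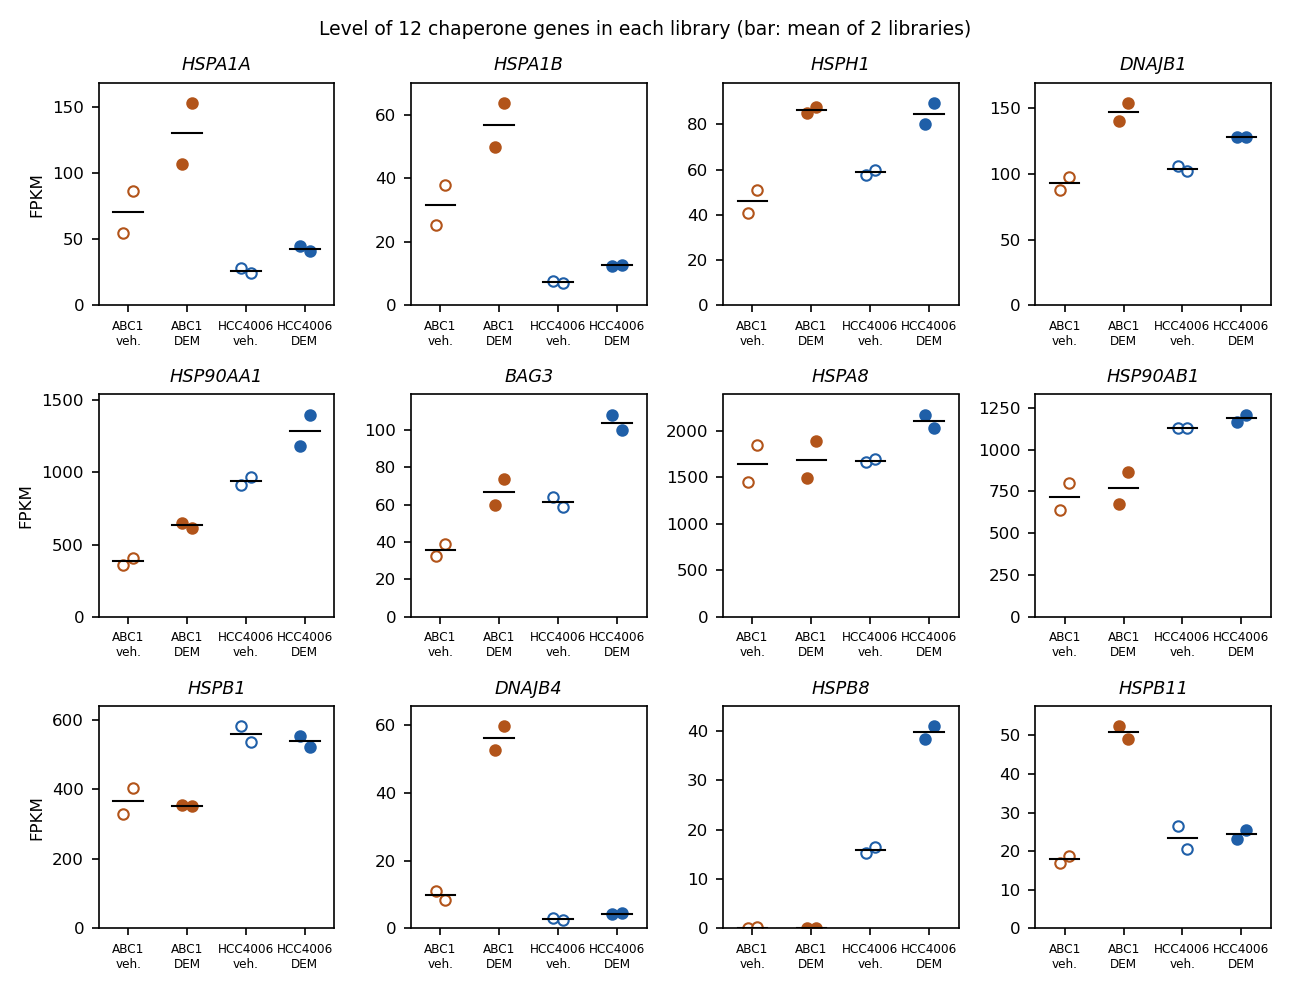
FPKM of 12 chaperone genes in each library, vehicle as open and DEM as filled circles, ABC1 in brown and HCC4006 in blue, with a bar at the mean of 2 libraries; each panel has its own axis from 0. HSPA1A, HSPA1B, HSPH1, DNAJB1, HSP90AA1 and BAG3 are higher with DEM in both lines without overlap, DNAJB4 and HSPB11 stand out in ABC1, and HSPB8 is seen in HCC4006 and is near 0 in ABC1.

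Of the HSP90 genes, the inducible cytosolic form HSP90AA1 rose in HCC4006, from 915 and 965 FPKM with vehicle to 1178 and 1398 FPKM with DEM (0.45, SE 0.09, adjusted p = 0.0258). In ABC1 it was at 356 and 409.5 against 651 and 617 FPKM (0.73, SE 0.14, adjusted p = 0.0746), again without overlap. The constitutive form HSP90AB1 was at 1129 and 1128 against 1164 and 1209 FPKM in HCC4006 (0.07) and at 639 and 798 against 672 and 864 FPKM in ABC1 (0.09), and was not called. These estimates are smaller than those of HSP90AA1 in both lines.

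The 5 HSP90 co-chaperones were all above 0 in both lines, with medians of 0.33 in HCC4006 and 0.50 in ABC1, and 3 of 5 were called in HCC4006. FKBP4, a peptidyl-prolyl isomerase that carries steroid receptors with HSP90, was at 57.1 and 56.3 FPKM with vehicle and 82.3 and 85.1 FPKM with DEM (0.55, SE 0.07, adjusted p = 0.00642). CHORDC1 was at 71.6 and 83.2 against 103 and 124 FPKM (0.54, SE 0.12, adjusted p = 0.0290). STIP1, which links HSP70 to HSP90, was at 165 and 162 against 211 and 200.3 FPKM (0.33, SE 0.06, adjusted p = 0.0218). The DEM and vehicle libraries of these genes did not overlap. AHSA1, which activates the HSP90 ATPase, and PTGES3, which encodes p23, gave 0.22 and 0.25 with adjusted p of 0.0733 and 0.0543 by limma, with AHSA1 at 187 and 188 against 209.9 and 229 FPKM. In ABC1 the highest of the class was AHSA1, at 193 and 256 against 325 and 382 FPKM (0.66, SE 0.19, adjusted p = 0.129), and the lowest was FKBP4, at 89.7 and 108 against 116 and 134 FPKM (0.34).

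J proteins deliver substrates to HSP70. DNAJB4, a cytosolic J protein gene at chr1:78444859-78483648 on the plus strand (ENSG00000162616.8), changed most of all members: in ABC1 it rose from 11.0 and 8.45 FPKM with vehicle to 52.6 and 59.6 FPKM with DEM (2.42, SE 0.16, adjusted p = 0.00904). In HCC4006 it was at 3.004 and 2.32 against 4.24 and 4.43 FPKM (0.55, SE 0.15, adjusted p = 0.0570). The groups did not overlap in either line, and every DEM library of HCC4006 was below every vehicle library of ABC1. The span of DNAJB4 overlaps that of GIPC2, a protein-coding gene on the same strand. Of the 80-base stretches of DNAJB4 transcripts, 0% also occur in other genes. DNAJB1, the main heat-inducible partner of HSP70, was at 106 and 102 against 128 and 128 FPKM in HCC4006 (0.30, SE 0.06, adjusted p = 0.0290) and at 88.0 and 97.5 against 140.3 and 154 FPKM in ABC1 (0.66, SE 0.13, adjusted p = 0.0739).

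The other 8 J protein genes were not called in either line. DNAJB2, which carries ubiquitin-binding motifs, was at 18.9 and 18.9 against 31.4 and 31.5 FPKM in ABC1 (0.71, SE 0.12, adjusted p = 0.0606), with replicate values closer together than the change, and at 37.3 and 39.0 against 42.3 and 40.3 FPKM in HCC4006 (0.11). DNAJA1, DNAJB6 and DNAJC2 gave 0.44, 0.43 and 0.42 in ABC1 and 0.12, 0.18 and 0.27 in HCC4006, where 7.87% of the 80-base stretches of DNAJB6 also occur in DNAJB6P1. The estimates of DNAJA2, DNAJA3 and DNAJC7 were 0.00 to 0.23 in ABC1 cells, while in HCC4006 cells they were -0.04 to 0.16. DNAJB5 was close to the minimum, at 0.707 to 1.14 FPKM in ABC1 and at 1.59 and 1.56 against 1.13 and 0.911 FPKM in HCC4006 (-0.35, adjusted p = 0.206), the lowest of the class there.

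The 3 genes with small HSP symbols differed from each other. HSPB8, the partner of BAG3 in chaperone-assisted autophagy (ENSG00000152137.2), rose in HCC4006 from 15.2 and 16.6 FPKM to 38.5 and 41.0 FPKM (1.27, SE 0.09, adjusted p = 0.00160), the highest estimate of any member in that line. In ABC1 it did not exceed 0.179 FPKM in any of the 4 libraries. HSPB11 (ENSG00000081870.7, chr1:54382247-54411372, minus strand) encodes IFT25, a component of intraflagellar transport, and rose in ABC1 from 17.004 and 18.7 to 52.4 and 49.1 FPKM (1.46, SE 0.12, adjusted p = 0.0183). In HCC4006 it was at 26.4 and 20.4 against 23.2 and 25.4 FPKM (0.06, adjusted p = 0.776), with overlap. HSPB1, the abundant small HSP known as HSP27, was at 581 and 537 against 554 and 523 FPKM in HCC4006 (-0.05) and at 329 and 404 against 355 and 351 FPKM in ABC1 (-0.04), with overlap in both lines.

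BAG proteins release ADP from HSP70, and 3 of the 4 rose in HCC4006. BAG3, which is heat-inducible and directs clients to autophagy, was at 63.9 and 58.4 FPKM with vehicle and 108 and 99.6 FPKM with DEM (0.75, SE 0.08, adjusted p = 0.00457). BAG1 was at 36.2 and 36.5 against 58.8 and 52.7 FPKM (0.60, SE 0.08, adjusted p = 0.00905), and BAG2, an inhibitor of STUB1, at 4.53 and 5.36 against 7.99 and 7.37 FPKM (0.55, SE 0.13, adjusted p = 0.0362). None of these groups overlapped. In ABC1, BAG3 was at 32.6 and 38.7 against 59.7 and 73.8 FPKM (0.88, SE 0.16, adjusted p = 0.0671). BAG1 was at 90.5 and 99.9 against 93.5 and 89.4 FPKM (-0.06) and BAG2 at 12.4 and 15.4 against 12.5 and 16.6 FPKM (0.06), so that these groups overlapped. BAG5 was not called, at 9.18 and 11.1 against 12.6 and 13.1 FPKM in ABC1 (0.32) and at 44.9 and 40.0 against 48.6 and 40.7 FPKM in HCC4006 (0.07). STUB1, the ubiquitin ligase that acts on chaperone clients, gave -0.07 and -0.08.

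Of the 5 members whose proteins work in mitochondria, HSPA9 was called, in HCC4006. HSPA9, the matrix HSP70 known as mortalin, was at 323 and 338 FPKM with vehicle and 413 and 383 FPKM with DEM (0.27, SE 0.07, adjusted p = 0.0437). In ABC1 it was at 294 and 356 against 354 and 485 FPKM (0.36, SE 0.20, adjusted p = 0.358), and the groups overlapped. HSPD1, the subunit of the HSP60 chaperonin, was at 394 and 391 against 421 and 439 FPKM in HCC4006 (0.13, adjusted p = 0.161) and at 313 and 362 against 364 and 460.2 FPKM in ABC1 (0.28, adjusted p = 0.393). Its lid HSPE1 was at 201 and 199 against 185 and 199 FPKM in HCC4006 (-0.06) and at 223 and 286 against 277 and 334 FPKM in ABC1 (0.27). For HSPE1, 19.8% of 80-base stretches also occur in other genes, with HSPE1-MOB4 on the same strand first among them, so its values are less certain. HSPD1 and HSPE1 also overlap on opposite strands, and whether the counting used strand is not given in the sources used here. TRAP1, the mitochondrial HSP90, was at 116 and 116 against 106 and 104 FPKM in HCC4006 (-0.14) and at 95.4 and 125 against 82.6 and 133 FPKM in ABC1 (-0.06). DNAJA3, the mitochondrial J protein gene, was at 52.2 and 50.2 against 56.4 and 58.7 FPKM in HCC4006 (0.16) and at 29.0 and 33.4 against 28.3 and 34.3 FPKM in ABC1 (0.00). For both genes the groups overlapped in ABC1 and not in HCC4006, and neither was called. The median of these 5 was 0.13 in HCC4006 and 0.27 in ABC1, beside 0.12 and 0.28 for the 38 cytosolic members.

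The CCT chaperonin genes were not called in either line by limma, and at an unadjusted p under 0.05 there were 0 of 8 in ABC1 and 1 of 8, CCT2, in HCC4006. Their medians were -0.04 in HCC4006 and -0.07 in ABC1, and the 8 estimates ran from -0.25 to 0.13 and from -0.28 to 0.39. TCP1, the highest, was at 197 and 178 FPKM with vehicle against 206 and 202 FPKM with DEM in HCC4006 and at 136 and 174 against 176 and 232 FPKM in ABC1. CCT2, the lowest, was at 102 and 109 against 82.6 and 95.4 FPKM in HCC4006 (-0.25, adjusted p = 0.109) and at 113 and 122 against 89.5 and 104 FPKM in ABC1 (-0.28, adjusted p = 0.301). Both DEM libraries lay below both vehicle libraries for CCT2 in each line, which 28.2% of all genes did in ABC1 and 35.3% in HCC4006. The summed CCT level was 1971 and 2407 FPKM with vehicle and 1883 and 2373 FPKM with DEM in ABC1, and 2119 and 2102 against 2005 and 2098 FPKM in HCC4006.

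HSF1, the factor that drives the heat shock response, and HSF2, its less abundant relative, were not called. HSF1 was at 71.5 and 79.8 FPKM with vehicle against 98.7 and 109.9 FPKM with DEM in ABC1 (0.46, SE 0.13, adjusted p = 0.136) and at 59.6 and 56.1 against 62.8 and 65.9 FPKM in HCC4006 (0.15, adjusted p = 0.197). HSF2 was at 4.22 and 3.87 against 5.62 and 5.49 FPKM in ABC1 (0.38) and at 2.84 and 2.10 against 3.58 and 3.42 FPKM in HCC4006 (0.38). The DEM libraries were above the vehicle libraries for both genes in both lines, which held for 25.5% of all genes in ABC1 and 29.3% in HCC4006. HSF1 is activated by its protein state, which RNA levels do not measure.

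Ratios of an inducible gene to a constitutive relative within a library do not depend on how libraries are scaled. These pairs were chosen after the values were seen and carry no test. HSPA1A was at 3.77% and 4.68% of the HSPA8 level with vehicle and at 7.18% and 8.07% with DEM in ABC1, and at 1.69% and 1.44% against 2.08% and 2.00% in HCC4006. HSP90AA1 was at 55.6% and 51.3% of HSP90AB1 against 96.8% and 71.4% in ABC1, and at 81.0% and 85.6% against 101% and 116% in HCC4006. The HSPH1 share of HSPA4 went from 73.6% and 88.5% to 135% and 132% in ABC1 and from 136% and 139% to 191% and 190.1% in HCC4006. The DNAJB1 share of DNAJA2 went from 328% and 306% to 481% and 488% in ABC1 and from 243% and 232% to 299.98% and 246% in HCC4006. In all 4 pairs and both lines the DEM libraries lay above the vehicle libraries. The ratio of HSPA1A to HSPA1B overlapped between treatments, at 2.14 to 2.40 in ABC1 and 3.18 to 3.69 in HCC4006, within the limit that these genes share most of their sequence.

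**Figure D3:**
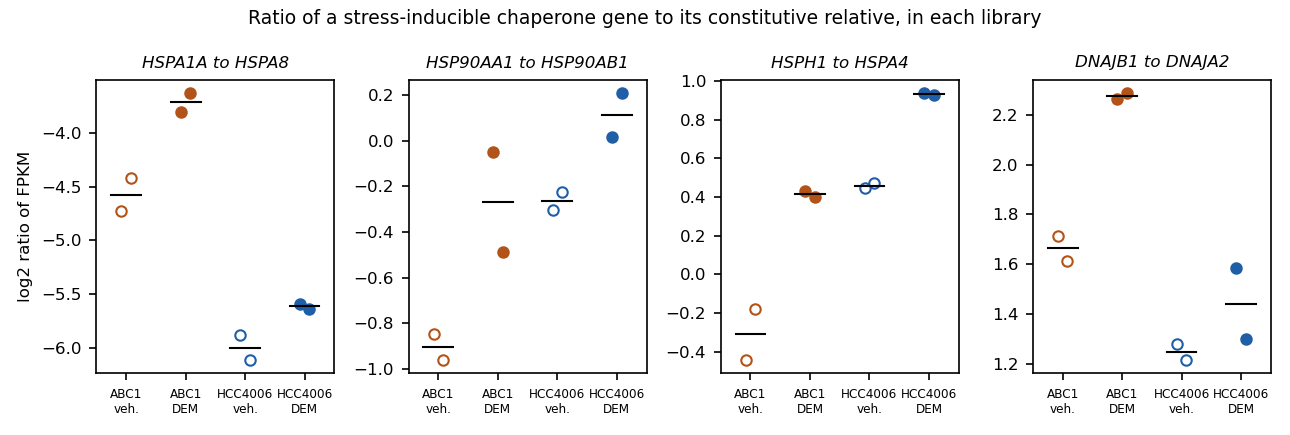
Log2 ratio of FPKM of a stress-inducible chaperone gene to a constitutive relative in each library, vehicle open and DEM filled, ABC1 brown and HCC4006 blue, with a bar at the mean of 2 libraries. In each panel and line both DEM libraries lie above both vehicle libraries, and the shift of the mean is larger in ABC1, for example 0.86 against 0.38 for HSPA1A to HSPA8; the difference between lines was not tested for these ratios.

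The response was then compared between the lines. Across the 45 members tested in both, 32 estimates were above 0 in both lines, 10 were below 0 in both and 3 had opposite signs. The estimates correlated across genes with Pearson's r = 0.595 and Spearman's rho = 0.695, as a description over genes that share libraries. Of all genes, 47.7% were above 0 in ABC1 and 47% in HCC4006, and their agreement between lines is not given here. The test of the difference (HCC4006 response minus ABC1 response, 8 libraries) called 1 member higher, HSPB8 at 1.37 (SE 0.18, adjusted p = 0.0348), and 2 lower, DNAJB4 at -1.88 (SE 0.22, adjusted p = 0.0209) and HSPB11 at -1.40 (SE 0.19, adjusted p = 0.0357). Over all 13682 genes, 0.307% were called higher, 0.329% lower and 0.636% either way. At an unadjusted p under 0.05, 3 members were higher and 4 lower, where 7.27% and 7.85% of all genes were.

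The value of HSPB8 sets a rise in HCC4006 beside a gene near 0 in ABC1, so that it depends on the pseudocount. With a pseudocount of 0.1 none of the 3 was called, and leaving out any library ended the calls of HSPB8 and HSPB11, while DNAJB4 stayed called without ABC1 vehicle replicate 0 and without ABC1 DEM replicate 0 but not without any other. DNAJB2 (-0.59, adjusted p = 0.0867) and BAG1 (0.66, adjusted p = 0.0901) came next. The 14 members other than HSPB8 that were called in HCC4006 were not called in ABC1, and none of them was called different between the lines by limma. After BAG1, the lowest adjusted p was 0.259 for DNAJB1 (-0.36), which with BAG1 had an unadjusted p under 0.05, then 0.350 for HSPA13 (-0.42), 0.358 for HSPH1 (-0.39) and 0.388 for BAG2 (0.49). The other 9 ran from 0.513 for HSP90AA1 (-0.28) to 0.950 for CHORDC1 (0.04). The 95% interval of the difference ran from -0.98 to 0.59 for HSPA1A and from -0.58 to 0.32 for BAG3.

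**Figure D4:**
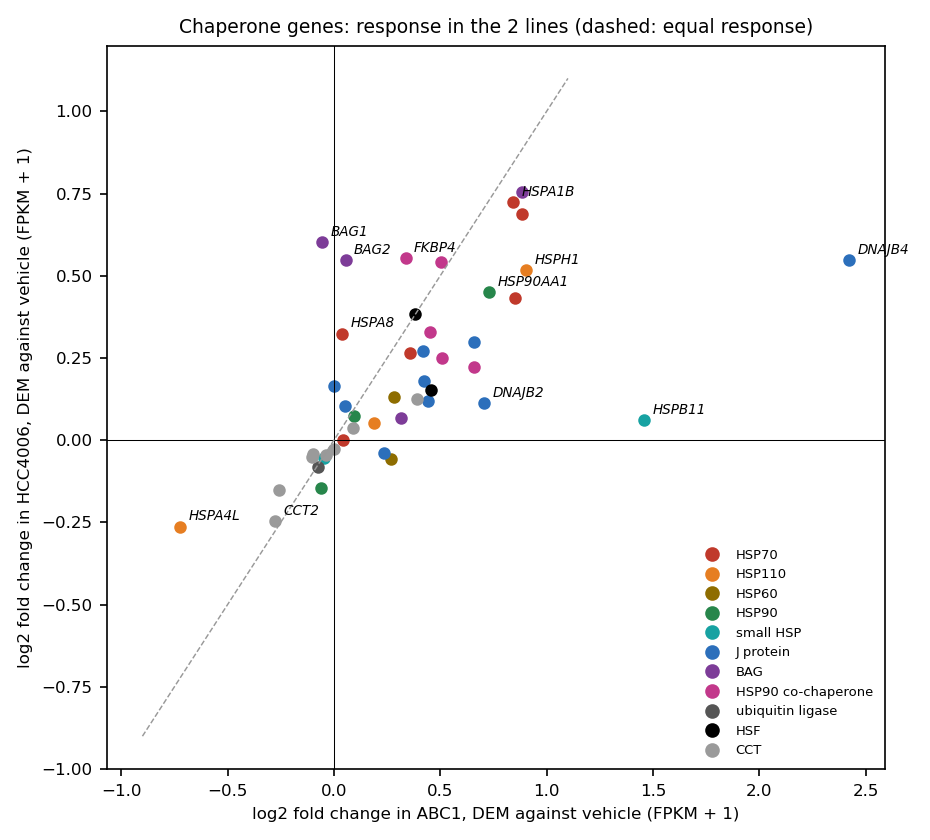
Log2 fold change of FPKM + 1, DEM against vehicle, in ABC1 (horizontal axis) and HCC4006 (vertical axis) for the 45 chaperone genes tested in both, coloured by class; the dashed line marks equal response. Of these, 32 lie above 0 on both axes, DNAJB4 and HSPB11 lie far to the right at 2.42 and 1.46 in ABC1, and BAG1 and BAG2 lie near 0 in ABC1 and at 0.60 and 0.55 in HCC4006.

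Without DEM, 32 of the 47 members differed between the lines, 18 higher and 14 lower in HCC4006, which is close to the share of all genes called higher (36.8%) and lower (30.2%) in that comparison. HSPB8 was the most different, at 0.00468 and 0.179 FPKM in ABC1 and 15.2 and 16.6 FPKM in HCC4006. HSPA4L (-2.64, adjusted p = 9e-07), HSPA1B (-1.95, adjusted p = 7e-05), DNAJB4 (-1.54, adjusted p = 6.9e-05) and HSPA1A (-1.36, adjusted p = 0.00145) were lower in HCC4006 by limma on 8 libraries. BAG5 (1.97, adjusted p = 8.3e-06), HSP90AA1 (1.30, adjusted p = 4.9e-05) and DNAJB6 (1.28, adjusted p = 0.00118) were higher in HCC4006. BAG1 (-1.36) and BAG2 (-1.32) were lower in HCC4006. By level per transcript length, HSPA8 came first with vehicle in both lines, followed by HSP90AB1 and HSP90AA1 in HCC4006, and by CCT5 (626 and 803 FPKM) and HSP90AB1 (639 and 798 FPKM) in ABC1, which overlapped.

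**Figure D5:**
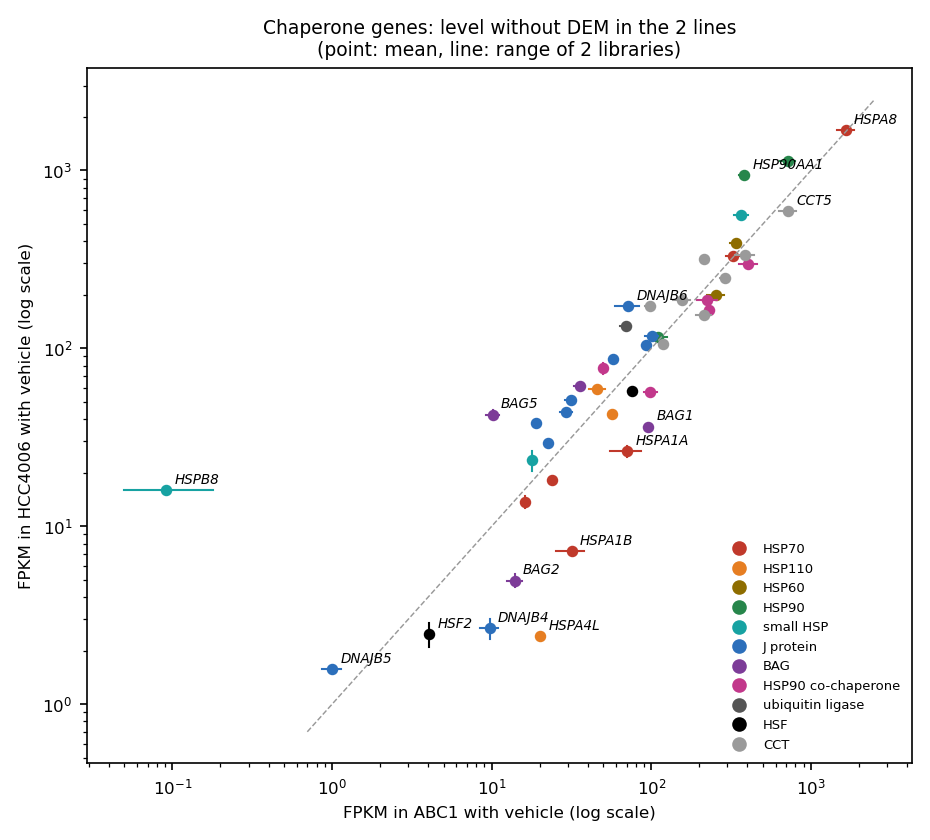
FPKM with vehicle in ABC1 (horizontal) and HCC4006 (vertical) on log axes for the 47 chaperone genes, point at the mean and lines over the range of 2 libraries; values below 0.05 are drawn at 0.05. HSPB8 lies far above the dashed line of equal level, and HSPA4L, HSPA1B, DNAJB4, HSPA1A, BAG1 and BAG2 lie below it.

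Chaperone genes outside the 47 were counted for comparison, in 5 lists (other cytosolic HSP70 and small HSP, other J proteins, other HSP70 and HSP90 co-chaperones, prefoldin, and mitochondrial import and protease partners). Of 68 genes listed, 67 were matched, and in ABC1 none of 57 tested was called by limma, with 3 higher and 8 lower at an unadjusted p under 0.05 and a median of 0.05. In HCC4006, 5 of 59 tested were called higher and 4 lower, with a median of -0.01, near the 8.45% and 10.7% of all genes. The 9 genes are named here after their values were seen. HSPA6, a strictly inducible HSP70 gene, was at 2.48 and 2.52 FPKM with vehicle and 5.07 and 5.39 FPKM with DEM in HCC4006 (0.83, SE 0.13, adjusted p = 0.0124) and at most 0.336 FPKM in ABC1. DNAJC5, DNAJC6, TTC4 and TIMM44 also rose, by 0.38 to 0.56. For TTC4, 30.4 to 47.3 FPKM in HCC4006 stood beside a mean of 17.8 normalized counts given by the authors. DNAJC18, HSPBP1, PFDN6 and CLPB fell, with log2 fold changes from -1.04 to -0.44, among them CLPB, a mitochondrial disaggregase, and HSPBP1, a nucleotide exchange factor of HSP70.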

How the data were processed

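RNA was measured in 8 libraries (ABC1 and HCC4006, vehicle or DEM, 2 each) made with a strand-specific kit after polyA selection and sequenced as paired reads of 80 bases. The authors deposited FPKM values per gene and library, which were used as deposited. The submitters' processing notes list bcl2fastq 2.15.0, cutadapt 1.15, STAR 2.5.3a, SAMtools, Cuffnorm, HTSeq, DESeq2 and R 3.2.0 on hg19 (GRCh37.p13), whereas the methods name TopHat and Cufflinks; which made the FPKM is not settled here. The authors also deposited a comparison table per line. Of these, the base mean, a signal of normalized counts averaged by the authors over the line's libraries, was read for depth: it sums to 13786927 in ABC1 and 13957312 in HCC4006, and is at least 100 for 45 and 43 of the 47 members. Their fold change and p-value columns hold the authors' own comparison and were not used.

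Of 57815 identifiers, 55534 had a symbol. log2(FPKM + 1) was fitted with limma 3.58.1 (R 4.3.3; moderated with a mean-variance trend) for genes averaging 1 FPKM or more, over the line's 4 libraries for DEM against vehicle and over all 8 for the other comparisons. Adjusted p-values are Benjamini-Hochberg over all genes tested, called under 0.05, two-sided. Fold changes on this scale understate changes of low genes. The scripts were tested on simulated data. No depth per library is known, so no counting interval is given. Where nothing ties libraries to separate days, p-values measure only the spread between these cultures. Members and lists were chosen with earlier results of these data known. Values per library are given for members called in either line or between lines, for 9 stress-inducible genes, for HSF1 and HSF2 and for the extremes of each class of 3 or more; others are given by estimate or range. Sequence sharing was computed from GENCODE transcripts on GRCh37. Alternatives were a pseudocount of 0.1, no minimum, a minimum of 5 FPKM, median-of-ratios rescaling, no trend, a replicate block, a fit of all 8 libraries and leaving out each library.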

Additional observations from a re-analysis of the deposited data

Results flagged for a closer look

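The response to DEM differed between the lines for 3 members by a test of the difference itself (limma on 8 libraries, HCC4006 response minus ABC1 response, log2 scale). DNAJB4 differed by -1.88 (adjusted p = 0.0209; 0.0123 to 0.152 over the 14 alternatives), with DEM libraries above vehicle libraries in both lines. HSPB11 differed by -1.40 (adjusted p = 0.0357; 0.0255 to 0.156), with a rise in ABC1 and overlapping groups in HCC4006. HSPB8 differed by 1.37 (adjusted p = 0.0348; 0.0220 to 0.257), but at 0.00170 to 0.179 FPKM in ABC1 there is no measurable level to compare with its rise in HCC4006.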

How the results depend on the processing

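The number of members called higher in ABC1 was 2, and became 0 without a minimum FPKM, 5 with a minimum of 5 FPKM, 8 after rescaling by the median of ratios, 12 in the fit of all 8 libraries (with 1 lower) and 0 to 2 with a library left out. In HCC4006 it was 15, and became 2 without a minimum, 8 without the trend, 6 in the fit of all 8 libraries and 3 to 7 with a library left out. Between the lines, 1 higher and 2 lower became 0 and 0 with a pseudocount of 0.1, and 0 and 0 to 1 with a library left out. With a library left out, the median log2 fold change in ABC1 ran from 0.14 to 0.39. In HCC4006 it ran from 0.14 to 0.19, and was 0.16 after rescaling. The median of the difference between lines ran from -0.24 to 0.01, and that of the vehicle comparison from -0.10 to 0.24, where the count lower ran from 9 to 15. The cause was not tested.

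Replicate numbers in the titles are not said to mark a shared day. Deviations from group means of libraries with the same number correlated at 0.258 across genes in ABC1 and 0.0544 in HCC4006, and at 0.624 and 0.301 across the chaperone genes. With 2 groups and 2 numbers in a line, and no label that gives a number a meaning, the numbers were not taken as pairs. With a replicate block, 23 members were called higher and 3 lower in ABC1 and 18 higher and 1 lower in HCC4006, and 0 higher and 0 lower for the difference between lines.

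Estimates without each library were made for the members given by library. Some of those not called in a line changed sign or came to 0.00. In ABC1 the ranges were -0.14 to 0.21 for HSPA8, -0.13 to 0.14 for DNAJA3, -0.14 to 0.25 for BAG2, -0.40 to 0.28 for TRAP1, -0.19 to 0.10 for HSPB1 and -0.13 to 0.01 for BAG1. In HCC4006 they were -0.11 to 0.00 for both HSPB1 and HSPE1, -0.06 to 0.19 for BAG5, -0.15 to 0.15 for HSPA14 and -0.12 to 0.24 for HSPB11. No library's depth is known, so what depth limits is not given.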

Other observations

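HSPE1 stood out for a mismatch between the deposited measures: its FPKM was 223 to 334 in ABC1 and 185 to 201 in HCC4006, while the authors' mean of normalized counts was 115 and 98.1. Its neighbour HSPD1, at 313 to 460.2 FPKM in ABC1, had authors' means of 5669 and 5958. HSPE1 has 19.8% of its 80-base stretches in other genes. Outside the members, TTC4 was at 30.4 to 47.3 FPKM in HCC4006 with an authors' mean of 17.8, and CD68 at 89.3 to 102 FPKM with 5.56.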
